A study of Mus musculus with 6 samples.

Results

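The cytochrome P450 genes are described here by the accessibility of their promoters in thymic medullary epithelium with and without Kat7. Members were the genes whose symbol is Cyp followed by a family number, a subfamily letter and a gene number, with pseudogenes (-ps) left out. The rule took 94 of the 27095 promoter windows that were counted. It left out 10 further symbols that start like a P450 gene, 4 of them pseudogenes, and among the rest Cyp51. Chromatin was assayed by ATAC-seq, which reads out where a transposase, Tn5, could insert into the chromatin. The cells were medullary thymic epithelial cells (mTECs) with high surface MHC class II, which display self-antigens to developing T cells. There were 3 Kat7 knockout and 3 wildtype libraries, each a biological replicate per the design text, all from mice of the C57BL/6 background. Kat7 encodes a histone acetyltransferase. In the sources used here, the cell type in which Kat7 was deleted, the deleted segment and the ages of the mice are not given.

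P450 enzymes are heme proteins that use electrons from NADPH to insert an oxygen atom into a substrate. The CYP1 to CYP4 families oxidise drugs, plant compounds and fatty acids, mainly in liver, intestine and airway, while the remaining families make or break down steroid hormones, retinoic acid, vitamin D and bile acids. In the thymus these genes are of interest as tissue-restricted antigens: mTECs transcribe genes of many other organs, and several P450 enzymes of adrenal gland and liver are targets of human autoantibodies when central tolerance fails.

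Libraries held between 15482439 and 19740835 counts in the knockout group, against 15494911 to 19832326 in wildtype, and P450 windows received 0.104 to 0.117% of knockout counts and 0.118 to 0.128% of wildtype counts. The window of Kat7 itself fell to 21.1 ± 14.9 CPM in knockout, against 267 ± 26.5 CPM in wildtype (SD, n = 3 each; log2 fold change -3.66, adjusted p = 0.0143), where CPM is the count scaled to library size and TMM factor. Of 10 windows of mTEC genes, 0 were lower and 2 were higher (Foxn1 1.69 and Krt5 0.61 on the log2 scale), and each averaged at least 63.3 CPM in both groups. Knockout library 1 stood apart, with a limma-voom sample weight of 0.158, against 0.615 to 3.69 for the others. Windows of genes of other cell types also moved, and none was at 0 (the lowest, Cd3g, averaged 0.22 CPM in knockout and 0.229 CPM in wildtype). Endothelial markers (Pecam1, Cdh5 and Kdr, 2 of 3 lower) summed to 13.4 to 16.8 CPM in knockout and 28.9 to 32.7 CPM in wildtype, and mesenchymal markers (Pdgfra, Pdgfrb and Col1a1, 2 of 3 lower) to 67.6 to 70.8 CPM in knockout and 96.2 to 99.2 CPM in wildtype. Hepatocyte markers (Alb, Apoa1, Ttr, Hnf4a and Serpina1a) summed to 31.3 to 33.9 CPM in knockout and 40.2 to 44.3 CPM in wildtype, with 2 of 5 lower. Thymocyte markers (3 of 6 tested higher) summed to 36.2 to 38.6 CPM in knockout and 27.97 to 31.2 CPM in wildtype. B-cell markers (1 of 3 lower) summed to 14.7 to 15.4 CPM in knockout and 18.97 to 21.7 CPM in wildtype, and myeloid markers (2 of 4 lower) to 15.8 to 18.6 CPM in knockout and 21.3 to 22.96 CPM in wildtype. The part of these cell types in the P450 results was not tested. In bulk libraries, fewer cells with an open promoter and less opening per cell cannot be told apart.

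Levels differed widely within the family. Windows were 4949 to 5000 bases long, so length did not set their levels apart. Some low levels may lack reads from bases shared with another window, or reads that match several gene copies. The mean over all 6 libraries reached 117 CPM at Cyp46a1, the cholesterol hydroxylase of neurons, followed by Cyp1b1 (89.7 CPM), Cyp7b1 (80.7 CPM) and the orphan enzyme Cyp20a1 (80.1 CPM). It was lowest at Cyp39a1, an oxysterol hydroxylase, with 0.320 CPM. Cyp39a1 had 4, 8 and 6 counts in knockout and 3, 9 and 2 in wildtype, its window shared 4411 bases with that of Slc25a27, and it alone among the 94 failed the filter on low counts. Of the 93 members tested, 62 (66.7%) averaged under 5 CPM and are called nearly closed here, against 40.4% of all windows tested, while 20 members (21.5%) averaged over 20 CPM, against 41.7% of all windows. A count of 3, below which a window cannot be told from 0, corresponded to 0.151 to 0.194 CPM, for counting error only, since reads carried no molecular identifiers.

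The promoters of Cyp46a1 and Cyp2c66 are shown as an open and a nearly closed example. The sequences run from 250 bases before to 50 bases after the gene start, 5′ to 3′ on the gene's strand, from RefSeq on GRCm38.p6, the assembly that mm10 denotes, and capitals mark the motifs searched in each. Cyp46a1 lies at chr12:108334066-108334365, plus strand, and Cyp2c66 at chr19:39113648-39113947, plus strand.
Cyp46a1: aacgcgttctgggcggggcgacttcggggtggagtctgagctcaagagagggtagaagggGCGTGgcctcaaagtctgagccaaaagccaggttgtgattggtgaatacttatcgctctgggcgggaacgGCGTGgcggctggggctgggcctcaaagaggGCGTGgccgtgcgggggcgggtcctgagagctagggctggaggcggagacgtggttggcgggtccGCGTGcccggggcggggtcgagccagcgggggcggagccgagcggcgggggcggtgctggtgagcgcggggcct
Cyp2c66: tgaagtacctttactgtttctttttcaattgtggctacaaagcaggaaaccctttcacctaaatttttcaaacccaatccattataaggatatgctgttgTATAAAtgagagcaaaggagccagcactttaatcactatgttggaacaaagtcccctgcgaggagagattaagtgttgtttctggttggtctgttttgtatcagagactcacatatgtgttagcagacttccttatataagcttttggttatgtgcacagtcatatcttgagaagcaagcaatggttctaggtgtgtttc
The Cyp46a1 promoter held 31 CG dinucleotides with 70.3% G and C, and the Cyp2c66 promoter held 1 with 38.3%. The median of 32851 RefSeq promoters was 7 CG dinucleotides and 52.7% G and C. The motifs searched on both strands were TATAAA, the TATA box, found in 13.6% of all promoters; GCGTG, the core bound by the aryl hydrocarbon receptor, in 32.4%; and the hexamers AGTTCA in 14.0% and AGGTCA in 16.3%, which nuclear receptors bind, often as direct repeats. In the pair above, GCGTG occurred in the Cyp46a1 promoter and TATAAA in the Cyp2c66 promoter. A match describes letters only. Of the 94 members, 73 had a RefSeq promoter. Base composition was not summarised over the family, and its relation to level was not tested, so the pair above stands only for itself.

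**Figure D1:**
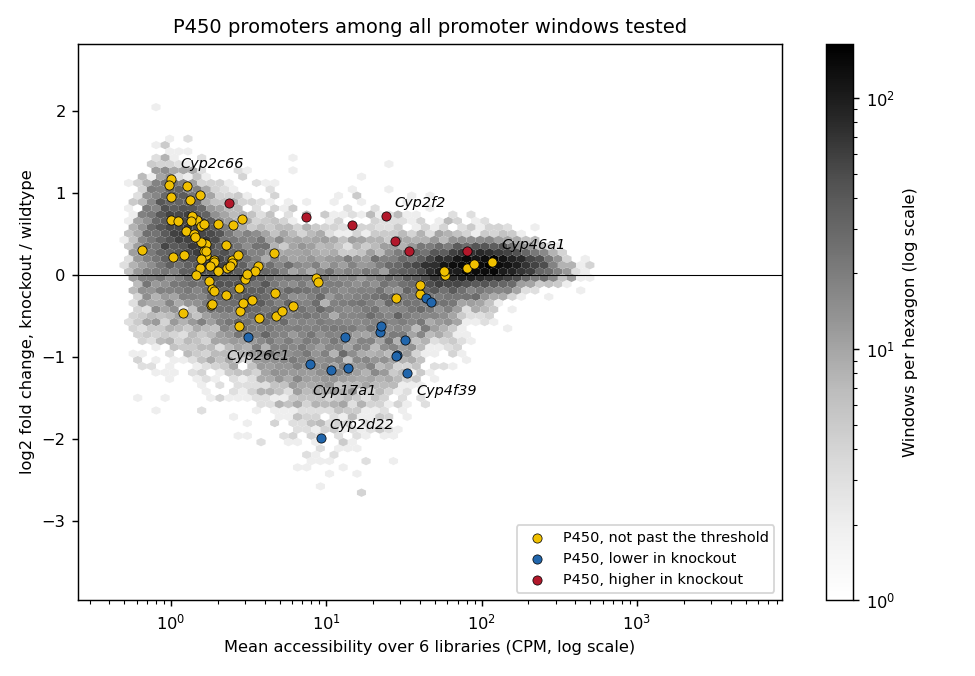
Each point is 1 of the 93 P450 windows tested, by its mean accessibility over 6 libraries (CPM, log scale) and its log2 fold change, knockout over wildtype; grey hexagons count all 24817 windows tested. The lowest point is Cyp2d22 at -1.99, most members under 5 CPM lie above 0 without passing the threshold, and the most open members, Cyp46a1 (0.16) and Cyp1b1 (0.13), lie near 0.

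With Kat7 deleted, 14 P450 promoters were less accessible and 7 were more accessible at an adjusted p under 0.05 (edgeR's quasi-likelihood test with Benjamini-Hochberg adjustment over all 24817 windows). The other 72 of 93 did not pass. Over all windows tested 26.6% were called, 20.2% lower and 6.36% higher, and the members' shares of 15.1% lower and 7.53% higher were near these. Only falls reached 2-fold among called members, with 5 of 93 (5.38%) against 7.28% of all windows lower by at least that much; 0 members rose by 2-fold and were called, against 0.886% of all windows. In 17 members all knockout libraries lay below all wildtype libraries (18.3%, against 24.6% of all windows), and in 14 all lay above (15.1%, against 13.5%). The members' median log2 fold change was 0.11, against 0.04 over all windows. With scaling that follows the level of each window (loess offsets), 12 members were lower and 11 higher, and the log2 fold changes of the 14 lower members were all nearer 0. The number of higher calls also rested on single libraries, with 17 without knockout library 1 and 4 without wildtype library 1.

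**Figure D2:**
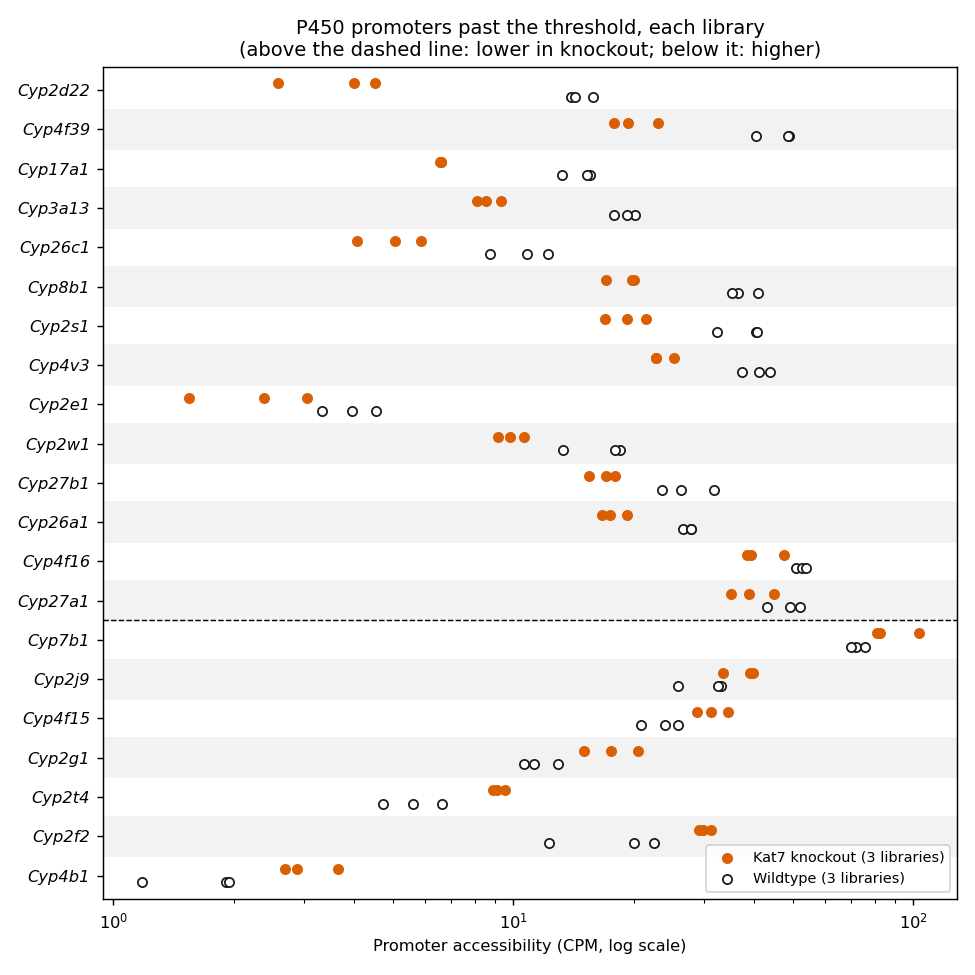
Accessibility (CPM, log scale) of the 21 P450 promoters past the threshold, with 3 Kat7 knockout libraries as filled points and 3 wildtype libraries as open points; the 14 genes above the dashed line were lower in knockout and the 7 below it higher. The groups separate in 20 of the 21 genes, and overlap in Cyp27a1.

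Among the steroidogenic enzymes, which make adrenal and gonadal hormones from cholesterol, 1 of 6 was lower and 0 were higher. Over all windows 20.2% were lower and 6.36% higher. The lower enzyme was Cyp17a1, the hydroxylase and lyase on the route to cortisol precursors and androgens, at chr19:46671000-46676000 (mm10, minus strand). Its window had 6.59, 6.57 and 6.60 CPM in the knockout libraries, against 13.3, 15.6 and 15.3 CPM in the wildtype libraries. The knockout libraries were nearly equal to each other and all far below wildtype, a 2.23-fold lower mean (log2 fold change -1.16, SE 0.15, adjusted p = 1.76e-13), or -0.70 with loess offsets. The next gene but one, As3mt, a methyltransferase acting on arsenic, was lower by a similar amount (-1.14), while Borcs7, which lies between them, was slightly higher (0.30, adjusted p = 0.0284). On the other side Wbp1l (0.17) and Arl3 (-1.03) did not pass.

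The 5 other steroidogenic windows had low counts in both groups. For Cyp11a1 and Cyp19a1 the start of the RefSeq gene lay upstream of the window, at another annotated start. Cyp11a1, which cleaves the cholesterol side chain in the first step, had 1.78, 3.76 and 3.30 CPM in knockout and 3.07, 2.75 and 3.31 CPM in wildtype (log2 fold change -0.05, SE 0.28, adjusted p = 0.920). Cyp21a1, the adrenal steroid hydroxylase, had 2.58, 3.46 and 4.64 CPM in knockout and 2.71, 3.51 and 4.07 CPM in wildtype (log2 fold change 0.05, SE 0.26, adjusted p = 0.905). Cyp19a1, the aromatase that makes oestrogens, had 1.15, 1.85 and 1.71 CPM in knockout and 1.59, 2.94 and 1.59 CPM in wildtype (log2 fold change -0.37, SE 0.39, adjusted p = 0.531). In all 3 the groups overlapped. Cyp11b1, for the last step to corticosterone, had 1.66, 1.67 and 2.26 CPM in knockout and 1.33, 1.09 and 2.13 CPM in wildtype (log2 fold change 0.30, SE 0.41, adjusted p = 0.640). Cyp11b2, the aldosterone synthase, had 1.78, 3.16 and 2.81 CPM in knockout and 2.82, 3.13 and 2.72 CPM in wildtype (log2 fold change -0.16, SE 0.30, adjusted p = 0.742). These groups overlapped as well. None of the 5 passed, also at an unadjusted p, in DESeq2 or in limma-voom, and SEs of 0.26 to 0.41 set the size of change that was detectable at this depth.

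Of the 3 CYP26 enzymes, which inactivate retinoic acid, Cyp26c1 and Cyp26a1 were lower and Cyp26b1 did not pass. The pair that fell are neighbours, at chr19:37682680-37687680 and chr19:37694808-37699808 (mm10, both plus strand), with 7.13 kb between their windows. Their promoters are shown because Cyp26a1 is known to be induced by retinoic acid through receptor elements near its start. They lie at chr19:37697558-37697857, plus strand, and at chr19:37685430-37685729, plus strand.
Cyp26a1: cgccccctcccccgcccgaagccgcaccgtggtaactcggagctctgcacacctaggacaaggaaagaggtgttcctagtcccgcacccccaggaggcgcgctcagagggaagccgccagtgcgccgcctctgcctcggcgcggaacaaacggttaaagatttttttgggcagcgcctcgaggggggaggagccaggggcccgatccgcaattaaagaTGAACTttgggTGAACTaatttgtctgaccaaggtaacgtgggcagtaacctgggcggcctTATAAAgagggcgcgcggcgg
Cyp26c1: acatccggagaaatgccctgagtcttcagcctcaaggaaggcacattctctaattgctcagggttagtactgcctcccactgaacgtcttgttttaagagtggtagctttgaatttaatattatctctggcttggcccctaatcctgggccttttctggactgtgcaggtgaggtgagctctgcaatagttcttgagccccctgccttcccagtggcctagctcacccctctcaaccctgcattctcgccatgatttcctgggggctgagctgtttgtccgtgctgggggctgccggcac
The Cyp26a1 promoter held 2 copies of AGTTCA on the minus strand (TGAACT as printed) with 5 bases between them, from -32 to -16 relative to the gene start. Such a direct repeat, of AGTTCA or AGGTCA on either strand with this spacing, occurred in 13 of 32851 promoters. It also held TATAAA from 30 to 35, downstream of the annotated start. The Cyp26c1 window of 300 bases held none of these letters.

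Cyp26c1 had 4.07, 5.07 and 5.87 CPM in knockout, against 12.2, 8.75 and 10.8 CPM in wildtype. Cyp26a1 had 19.2, 16.7 and 17.5 CPM in knockout, against 26.5, 27.8 and 27.8 CPM in wildtype. In both genes the knockout libraries all lay below the lowest wildtype library. The Cyp26c1 mean was 2.12-fold lower (log2 fold change -1.09, SE 0.17, adjusted p = 1.60e-09) and the Cyp26a1 mean 1.54-fold lower (log2 fold change -0.62, SE 0.12, adjusted p = 1.62e-06). With loess offsets the log2 fold changes were -0.65 for Cyp26c1 and -0.29 for Cyp26a1, both still past the threshold. On either side of the pair, Exoc6 (0.01) and Myof (0.07) did not pass. Cyp26b1, on chromosome 6, had 1.49, 2.81 and 3.30 CPM in knockout and 1.64, 2.04 and 2.18 CPM in wildtype, with overlapping groups (log2 fold change 0.37, SE 0.34, adjusted p = 0.463).

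Other retinoid genes were counted beside them. Of 16 windows for retinoid synthesis, transport and receptors, 9 were lower and 1 was higher, with a median log2 fold change of -0.57; over all windows 20.2% were lower and the median was 0.04. The retinaldehyde dehydrogenases that make retinoic acid were all lower, with log2 fold changes of -1.71 at Aldh1a1, -1.19 at Aldh1a3 and -0.72 at Aldh1a2. Among dehydrogenases that act on retinol, Dhrs9 (-1.40) and Rdh10 (-1.14) fell, and Rdh5 did not pass (-0.38, adjusted p = 0.0538). So did the binding proteins Crabp1 (-1.32) and Crabp2 (-0.68), and the esterifying enzyme Lrat (-0.45). Dhrs3, which returns retinaldehyde to retinol, rose by 0.54. The carrier Rbp4 (-0.39) and its receptor Stra6 (0.09) did not pass. The nuclear receptor windows Rara, Rarb and Rarg did not pass (0.24, -0.01 and 0.18). Enzymes that make retinoic acid and enzymes that remove it were both among the lower windows.

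In vitamin D metabolism, Cyp27b1 alone of 3 was lower, against 20.2% of all windows. This enzyme makes the active hormone, and its window lies at chr10:127045246-127050246 (mm10, plus strand). It had 17.1, 15.5 and 17.97 CPM in knockout, against 31.8, 23.5 and 26.3 CPM in wildtype, with no overlap and a 1.62-fold lower mean (log2 fold change -0.70, SE 0.12, adjusted p = 6.78e-08), or -0.36 on the log2 scale with loess offsets. Cyp2r1, which hydroxylates vitamin D in the step before, was open in both groups, with 66.95, 51.6 and 55.2 CPM in knockout and 61.4, 55.3 and 56.4 CPM in wildtype (log2 fold change 0.01, SE 0.11, adjusted p = 0.979). Cyp24a1, which degrades the hormone, stood close to the floor, with 0.401, 0.657 and 1.10 CPM in knockout and 0.461, 0.639 and 0.649 CPM in wildtype (log2 fold change 0.30, SE 0.56, adjusted p = 0.738). The Cyp24a1 window shared 3291 bases with that of Pfdn4, so its counts cover only part of the promoter region if shared reads were left out.

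Of the 6 sterol and bile acid enzymes, 2 were lower, 1 was higher, 2 did not pass and Cyp39a1 was not tested. Over all windows 20.2% were lower and 6.36% higher. Cyp8b1, which decides how much cholic acid is made, changed most. Its promoter is shown as one of the sharper falls outside the xenobiotic families, and lies at chr9:121916256-121916555, minus strand.
Cyp8b1: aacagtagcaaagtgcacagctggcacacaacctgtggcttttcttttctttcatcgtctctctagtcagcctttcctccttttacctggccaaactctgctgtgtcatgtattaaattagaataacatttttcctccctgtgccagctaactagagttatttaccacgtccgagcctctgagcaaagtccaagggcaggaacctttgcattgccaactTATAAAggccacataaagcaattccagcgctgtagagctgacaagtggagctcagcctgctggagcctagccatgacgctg
The capitals mark TATAAA, just upstream of the gene start. Its window (chr9:121914356-121919305, mm10) had 19.8, 17.1 and 20.04 CPM in knockout, against 36.5, 35.2 and 40.9 CPM in wildtype, a 1.98-fold lower mean with no overlap (log2 fold change -0.98, SE 0.12, adjusted p = 5.09e-16). Of the 2 nearest windows on each side 3 were lower, Ackr2 on one side (-0.88) and 1700048O20Rik (-1.29) and Gask1a (-1.01) on the other, while Higd1a, beyond Ackr2, did not pass (0.08). Among the hepatocyte markers, Apoa1 (-0.38) and Ttr (-1.04) were also lower and Alb, Hnf4a and Serpina1a did not pass; their part in this result was not tested.

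Cyp27a1, the mitochondrial sterol hydroxylase of the alternative bile acid route, had 44.8, 38.8 and 35.1 CPM in knockout and 43.2, 52.1 and 49.2 CPM in wildtype. The groups overlapped, and the call was marginal (log2 fold change -0.28, SE 0.11, adjusted p = 0.0450); it was lost in 5 of 14 alternative fits, with adjusted p = 0.153 without knockout library 2 and 0.279 without knockout library 3 in edgeR, 0.175 with DESeq2 size factors, 0.228 in DESeq2 and 0.0781 with loess offsets. Around Cyp27a1, Prkag3 was also lower (-0.68), Ttll4 (0.12) and Wnt6 (-0.22) did not pass, and Rnf25 was not tested. Cyp7b1, the oxysterol hydroxylase of the same route as Cyp27a1, had 103, 82.5 and 81.1 CPM in knockout, against 71.8, 75.7 and 69.9 CPM in wildtype. All knockout libraries were higher, by 1.23-fold in the mean (log2 fold change 0.29, SE 0.12, adjusted p = 0.0462), and this call was lost in 4 of the 14. Its adjusted p in edgeR was 0.0715 without knockout library 1 (log2 fold change 0.17), 0.0626 without knockout library 2, 0.179 without wildtype library 1 and 0.0874 without wildtype library 3. Cyp46a1 had 137, 117 and 117 CPM in knockout and 118, 107 and 106 CPM in wildtype, and Cyp7a1, the rate-limiting enzyme of bile acid synthesis, had 0.916, 1.37 and 2.44 CPM in knockout and 1.49, 1.34 and 1.59 CPM in wildtype. Neither passed (Cyp46a1 0.16, SE 0.12, adjusted p = 0.349; Cyp7a1 0.09, SE 0.43, adjusted p = 0.903), although Cyp46a1 did in edgeR with library totals as the only scaling (adjusted p = 0.0431) and when windows averaging under 50 counts were left out (0.0116).

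The vitamin D and bile acid partners had 5 of 12 windows lower and 0 higher (0 at an unadjusted p and in DESeq2, 1 in limma-voom), against 20.2% lower and 6.36% higher over all windows. Without knockout library 2 or 3, or wildtype library 1, 3 were lower. Those lower were Fgf15 (-1.12), the intestinal signal that represses bile acid synthesis, Baat (-1.11), which conjugates bile acids, the bile acid receptor Nr1h4 (-0.99), the vitamin D receptor Vdr (-0.38) and the oxysterol receptor Nr1h3 (-0.35). Among 18 steroidogenic partners tested, 7 were lower and 0 higher (0 at an unadjusted p and in DESeq2, 2 in limma-voom): Nr0b1 (-1.43), Hsd17b2 (-1.36), Srd5a2 (-1.28), Nr5a2 (-0.70), Stard3 (-0.66), Hsd11b1 (-0.56) and the cholesterol carrier Star (-0.40). With loess offsets 3 of these partners were lower.

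**Figure D3:**
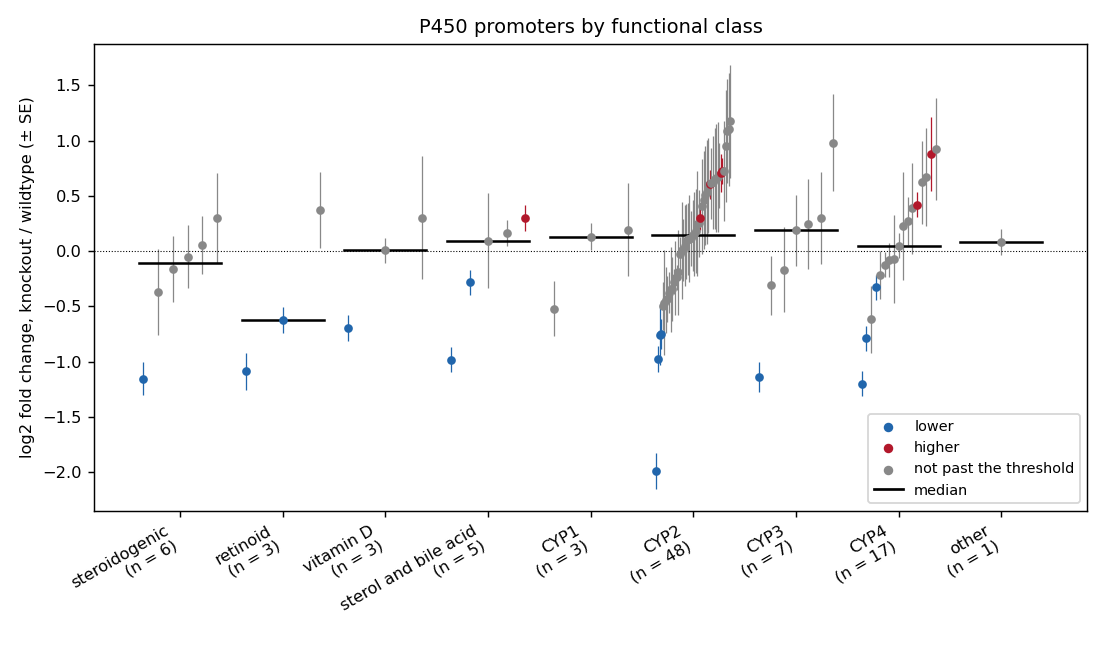
Log2 fold change (knockout over wildtype, bars ± SE of the fit) of the 93 tested P450 promoters by functional class, with a line at each class median. The 3 retinoid enzymes have the lowest median (-0.62), and Cyp2d22 at -1.99 stands apart below the other 47 CYP2 members.

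The CYP2 family was the largest class, with 48 members besides Cyp2r1. It held 4 lower and 4 higher promoters in edgeR's quasi-likelihood test, against 20.2% lower and 6.36% higher over all windows. Without knockout library 1 it held 11 higher ones, while higher calls over all windows went from 1578 to 3178. Cyp2d22 showed the greatest change of any P450 window. It is a member of the drug-oxidising CYP2D subfamily, at chr15:82378260-82383260 (mm10, minus strand), the end of a row of 9 Cyp2d genes. It had 2.58, 3.999 and 4.52 CPM in knockout, against 15.8, 13.9 and 14.2 CPM in wildtype. The knockout libraries lay far below every wildtype library, a 3.98-fold lower mean (log2 fold change -1.99, SE 0.17, adjusted p = 2.58e-31). None of the other 8 Cyp2d promoters passed (1 was lower at an unadjusted p and in limma-voom, 0 in DESeq2), with log2 fold changes from -0.50 to 0.25, and each was under 6 CPM on average. The adjacent Cyp2d11 averaged 2.36 CPM in knockout and 2.22 CPM in wildtype, and Cyp2d22 averaged 3.70 CPM in knockout. On the other side the nearest window, Ndufa6, did not pass (-0.01), and the next one, gene ID 100862061, was lower, with 13.2 ± 0.786 CPM in knockout and 29.9 ± 2.99 CPM in wildtype (SD, n = 3 each; log2 fold change -1.17, adjusted p = 2.43e-20).

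Cyp2s1, an enzyme of epithelia outside the liver, had 21.4, 16.95 and 19.2 CPM in knockout, against 40.5, 32.3 and 40.7 CPM in wildtype. Cyp2w1, known from fetal gut, had 9.79, 9.13 and 10.6 CPM in knockout, against 18.4, 13.3 and 17.9 CPM in wildtype. Cyp2e1, the ethanol-oxidising enzyme of liver, had 1.55, 2.39 and 3.06 CPM in knockout, against 3.33, 4.53 and 3.96 CPM in wildtype. None of the 3 pairs of groups overlapped. The means were 1.97-fold lower for Cyp2s1 (log2 fold change -0.98, SE 0.12, adjusted p = 6.34e-16), 1.69-fold lower for Cyp2w1 (log2 fold change -0.75, SE 0.14, adjusted p = 3.28e-07) and 1.69-fold lower for Cyp2e1 (log2 fold change -0.76, SE 0.28, adjusted p = 0.0289). For Cyp2w1 the loess offsets gave -0.31 and ended the call (adjusted p = 0.0713). The Cyp2e1 call was lost in 6 of 14 alternative fits. Its adjusted p in edgeR was 0.0802 without knockout library 1, 0.0808 without knockout library 2, 0.196 without wildtype library 2 and 0.131 without wildtype library 3. Beside Cyp2s1, Axl was also lower (-0.69), while Hnrnpul1 (0.20), Cyp2b10 (0.14) and Cyp2b13 (1.08) did not pass.

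The higher CYP2 promoters lay mostly in 1 gene cluster on chromosome 7. Over 1341 kb it holds 13 members of subfamilies Cyp2a, Cyp2b, Cyp2f, Cyp2g, Cyp2s and Cyp2t, with Cyp2s1 at one end. Near the other end Cyp2g1, Cyp2f2 and Cyp2t4 rose. The promoters of the last pair are shown because their windows are adjacent and rose together. They lie at chr7:27119705-27120004, plus strand, and at chr7:27153464-27153763, plus strand.
Cyp2f2: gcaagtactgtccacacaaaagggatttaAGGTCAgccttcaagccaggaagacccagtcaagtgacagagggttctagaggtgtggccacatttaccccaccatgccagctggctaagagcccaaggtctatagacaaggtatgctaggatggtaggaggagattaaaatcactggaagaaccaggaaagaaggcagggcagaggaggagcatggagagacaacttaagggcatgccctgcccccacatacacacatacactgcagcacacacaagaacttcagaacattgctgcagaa
Cyp2t4: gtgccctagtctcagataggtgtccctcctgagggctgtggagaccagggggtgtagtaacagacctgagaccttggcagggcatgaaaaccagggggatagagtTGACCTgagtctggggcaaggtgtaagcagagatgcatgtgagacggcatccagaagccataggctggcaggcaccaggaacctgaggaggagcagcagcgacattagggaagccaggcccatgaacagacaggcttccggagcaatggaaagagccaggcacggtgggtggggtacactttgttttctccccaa
Each held AGGTCA once, on the plus strand in Cyp2f2 and on the minus strand in Cyp2t4 (TGACCT as printed). They held 0 and 4 CG dinucleotides.

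Cyp2f2, the naphthalene-activating enzyme of airway club cells, had 29.7, 29.2 and 31.1 CPM in knockout, against 12.3, 22.5 and 20.1 CPM in wildtype. Cyp2t4 had 9.51, 8.89 and 9.11 CPM in knockout, against 4.71, 6.64 and 5.61 CPM in wildtype. Cyp2g1, an enzyme of olfactory mucosa, had 20.4, 14.98 and 17.5 CPM in knockout, against 10.7, 12.97 and 11.3 CPM in wildtype. All knockout libraries lay above all wildtype libraries in each, and wildtype library 1 was lowest for all 3. The means were 1.65-fold higher for Cyp2f2 (log2 fold change 0.72, SE 0.12, adjusted p = 1.08e-08), 1.63-fold for Cyp2t4 (log2 fold change 0.70, SE 0.17, adjusted p = 2.53e-04) and 1.52-fold for Cyp2g1 (log2 fold change 0.61, SE 0.13, adjusted p = 3.15e-05). All 3 held in each of the 14 alternative fits, and with loess offsets Cyp2t4 (1.14) and Cyp2g1 (1.03) rose more. Between Cyp2g1 and Cyp2f2 lie Cyp2a5 (-0.24), Cyp2a22 (0.68) and Cyp2a12 (0.61), which did not pass, and the next gene after Cyp2t4, Egln2 (0.22), did not pass either. The summed accessibility of the 13 members was 146, 128 and 145 CPM in knockout and 131, 138 and 148 CPM in wildtype, so the cluster as a whole did not separate the groups.

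**Figure D4:**
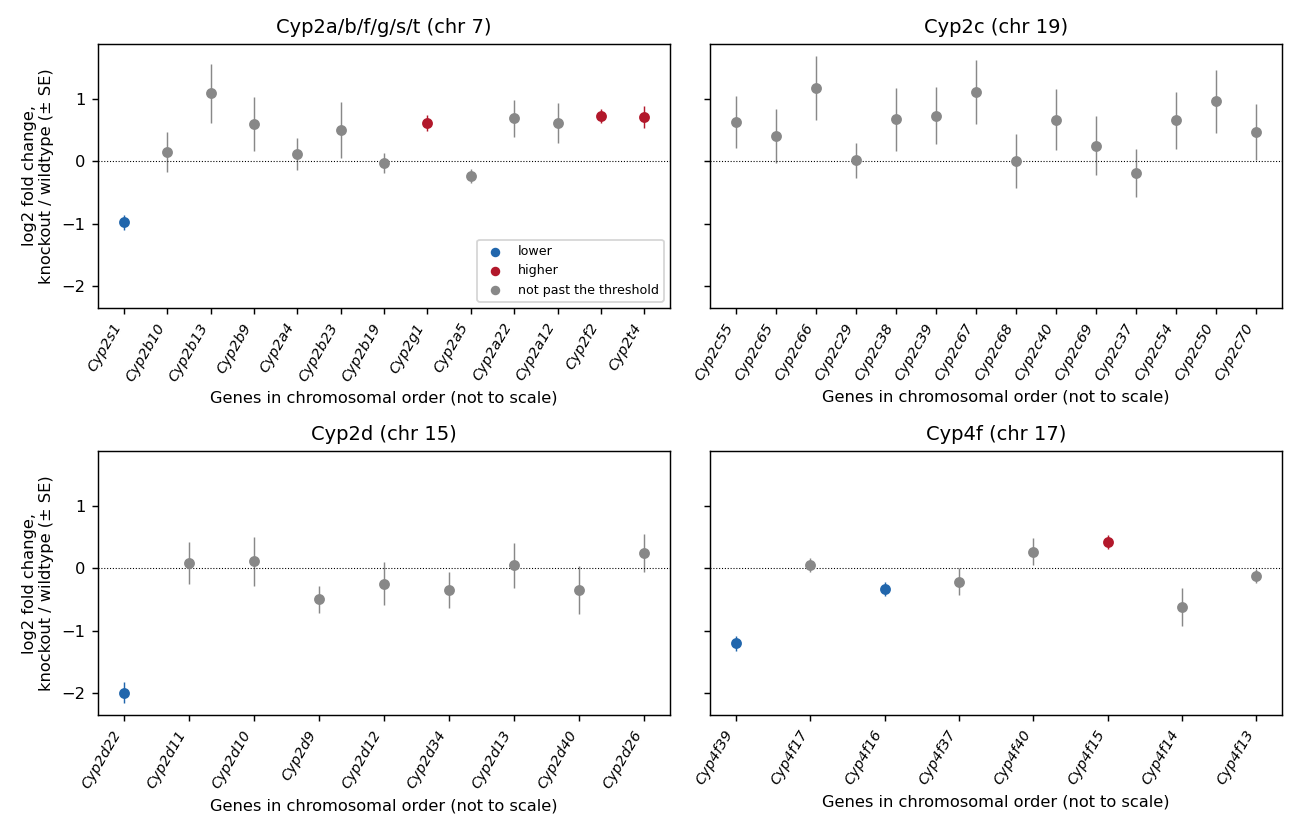
Log2 fold change (knockout over wildtype, bars ± SE of the fit) of the P450 promoters in 4 gene clusters, in chromosomal order and not to scale. Changes past the threshold (coloured) are single genes within rows of promoters that did not pass, apart from the adjacent pair Cyp2f2 (0.72) and Cyp2t4 (0.70).

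The fourth higher CYP2 gene was Cyp2j9, in a row of 7 Cyp2j genes, some of whose products oxidise arachidonic acid. It had 39.6, 33.4 and 39.1 CPM in knockout, against 25.8, 33.1 and 32.5 CPM in wildtype, a small difference without overlap (log2 fold change 0.30, SE 0.11, adjusted p = 0.0326). The call was lost in 5 of 14 alternative fits. These were without knockout library 1 (adjusted p = 0.0813 in edgeR), without knockout library 3 (0.132), without wildtype library 1 (0.374, with a log2 fold change of 0.19), in DESeq2 (0.0590) and in limma-voom (0.107, with 0.16). With loess offsets it was 0.49. Its neighbour Cyp2j6, open to a similar degree, had 28.6, 24.2 and 23.6 CPM in knockout and 30.7, 30.4 and 31.4 CPM in wildtype and did not pass (log2 fold change -0.28, SE 0.11, adjusted p = 0.0568), though it was lower in 7 of the 14, among them those without knockout library 1 and without wildtype library 2.

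None of the 14 Cyp2c promoters in the cluster on chromosome 19 passed in edgeR's quasi-likelihood test. At an unadjusted p 2 were higher, in DESeq2 0 and in limma-voom 8, while 13 of 14 had a log2 fold change above 0, with a median of 0.64. All were under 4 CPM on average. Their sum was 13.97, 27.7 and 27.3 CPM in knockout and 11.7, 20.2 and 19.4 CPM in wildtype. Library 1 was lowest within each group, and knockout library 1 lay within the wildtype range. Cyp2c66 had the highest fold change of all members, with 0.802, 1.79 and 1.59 CPM in knockout and 0.615, 0.511 and 0.708 CPM in wildtype (log2 fold change 1.17, SE 0.51, adjusted p = 0.0729), on counts of 14, 30 and 26 in knockout, against 12, 8 and 12 in wildtype. Genes of the Cyp2b, Cyp2c, Cyp2d, Cyp3a and Cyp4a rows include close copies of one another, and the sources used here do not say how reads that match several copies were counted.

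Within CYP3, whose members oxidise a large share of drugs in the liver, 1 of 7 was lower, against 20.2% of all windows. It was Cyp3a13, which stands apart from the Cyp3a cluster on chromosome 5, at chr5:137919619-137924619 (mm10, minus strand). It had 8.53, 8.12 and 9.29 CPM in knockout, against 17.9, 20.1 and 19.2 CPM in wildtype, clearly separated and 2.20-fold lower in the mean (log2 fold change -1.14, SE 0.14, adjusted p = 1.32e-15), or -0.71 on the log2 scale with loess offsets. The start of the RefSeq gene lay upstream of the Cyp3a13 window. Among the nearest windows on each side, Pilrb1 (-0.63), Pilrb2 (-0.55) and Azgp1 (-0.82) were also lower, and Gjc3 (0.16) did not pass. The 6 members of the cluster were nearly closed and did not pass (1 was higher at an unadjusted p, 0 in DESeq2 and 2 in limma-voom). They summed to 8.42, 15.2 and 15.4 CPM in knockout and 10.3, 12.1 and 13.6 CPM in wildtype.

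None of the 3 CYP1 genes passed in edgeR (1 was lower at an unadjusted p and in limma-voom, 0 in DESeq2). These are the classic targets of the aryl hydrocarbon receptor. Cyp1b1, active outside the liver, was the open member, with 101, 93.8 and 86.4 CPM in knockout and 86.03, 92.99 and 77.9 CPM in wildtype (log2 fold change 0.13, SE 0.12, adjusted p = 0.452). Cyp1a1 averaged 3.02 ± 0.888 CPM in knockout and 4.34 ± 0.626 CPM in wildtype (SD, n = 3 each; log2 fold change -0.52, SE 0.25, adjusted p = 0.116). Cyp1a1 and Cyp1a2 point away from each other and their windows share 1728 bases. The window of the receptor gene Ahr did not pass (-0.01).

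In CYP4, whose members hydroxylate fatty acids and eicosanoids, 3 of 17 were lower and 2 higher, against 20.2% and 6.36% of all windows. The higher count in edgeR was 5 without knockout library 1, and 1 without knockout library 2 or any 1 of the wildtype libraries. Cyp4f39, the mouse counterpart of a human enzyme for the very long fatty acids of the skin barrier, fell most. Its promoter, shown as the strongest fall among the more open members, lies at chr17:32452473-32452772, plus strand.
Cyp4f39: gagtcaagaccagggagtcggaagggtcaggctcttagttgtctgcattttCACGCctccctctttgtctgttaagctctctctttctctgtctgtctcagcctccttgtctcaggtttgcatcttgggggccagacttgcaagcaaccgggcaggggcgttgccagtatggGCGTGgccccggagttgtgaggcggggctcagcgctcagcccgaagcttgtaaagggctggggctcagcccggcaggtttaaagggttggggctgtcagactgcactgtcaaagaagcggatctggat
It held GCGTG on both strands (CACGC where it is on the minus strand) and 11 CG dinucleotides. The window (chr17:32449723-32454723, mm10) had 19.4, 17.8 and 22.98 CPM in knockout, against 49.01, 40.3 and 48.7 CPM in wildtype. All knockout libraries lay far below all wildtype libraries. The mean was 2.30-fold lower (log2 fold change -1.20, SE 0.12, adjusted p = 1.16e-23), and the gene before it, Pglyrp2, which encodes a peptidoglycan-cleaving enzyme, was lower too (-1.40); Rasal3, beyond it, did not pass (-0.48).

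Cyp4v3, a fatty acid hydroxylase whose human counterpart is mutated in a retinal dystrophy, had 25.3, 22.7 and 22.7 CPM in knockout, against 41.2, 37.2 and 43.7 CPM in wildtype, with no overlap (log2 fold change -0.79, SE 0.11, adjusted p = 6.82e-11). Nearby, F11 (-0.87) and Fam149a (-1.59) were also lower, gene ID 100503309 was higher (0.90), and Klkb1 (0.02) did not pass. Cyp4f16 had 47.5, 38.4 and 39.3 CPM in knockout, against 50.9, 52.6 and 54.02 CPM in wildtype, a small fall (log2 fold change -0.33, SE 0.11, adjusted p = 0.0149). That call was lost in edgeR without knockout library 2 (adjusted p = 0.145) or 3 (0.0940), with DESeq2 size factors (0.0924) and in DESeq2 (0.114). In the same row of 8 Cyp4f genes on chromosome 17, Cyp4f15 was higher, with 34.4, 31.2 and 28.7 CPM in knockout, against 20.9, 23.95 and 25.8 CPM in wildtype (log2 fold change 0.42, SE 0.11, adjusted p = 0.00147), or 0.68 on the log2 scale with loess offsets. Within this row Cyp4f16 and Cyp4f39 fell and Cyp4f15 rose, and Cyp4f17 and Cyp4f13, both open, did not pass (0.05 and -0.12). Cyp4b1, an enzyme of lung, was higher, with 2.69, 3.64 and 2.87 CPM in knockout, against 1.18, 1.92 and 1.95 CPM in wildtype (log2 fold change 0.88, SE 0.34, adjusted p = 0.0359). This was a low window, and the call was lost in 6 of 14 alternative fits. Its adjusted p in edgeR was 0.229 without knockout library 2, 0.251 without wildtype library 1, 0.105 without wildtype library 2, 0.101 without wildtype library 3, 0.0862 with library totals and 0.0632 with no filter. The 5 Cyp4a promoters, for fatty acid hydroxylases induced through Ppara, all had log2 fold changes above 0 (0.23 to 0.92) and none passed in edgeR (1 at an unadjusted p, 0 in DESeq2, 4 higher in limma-voom). The window of Ppara itself fell to 12.01 ± 2.32 CPM in knockout, against 40.9 ± 4.38 CPM in wildtype (log2 fold change -1.77, SE 0.12, adjusted p = 4.05e-46).

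Calls differed by level. Of the 62 members under 5 CPM, 1 was lower (1.61%, against 7.74% of all windows of that level) and 1 higher (1.61%, against 2.79%). Of the 11 members between 5 and 20 CPM, 5 were lower (45.5%, against 57.2%) and 2 higher (18.2%, against 6.67%). Of the 20 members over 20 CPM, 8 were lower (40%, against 16.4%) and 4 higher (20%, against 9.68%). In the highest band the share called was above that of all windows in both directions. Levels were unlike within this band, with a median of 37.0 CPM for the members and 74.3 CPM for all its windows. No test of the difference in shares was made.

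The nearly closed members varied between libraries of 1 group. The 62 summed to 93.5, 152 and 159 CPM in knockout and 106, 127 and 139 CPM in wildtype. In knockout library 1, 32 of the 62 lay below every wildtype library, and in libraries 2 and 3 37 and 38 lay above every wildtype library. These counts were not made over all windows of that level. The median log2 ratio to the wildtype mean was -0.41, 0.42 and 0.44 in the knockout libraries. Over all 10029 windows of that level it was -0.35, 0.27 and 0.35, so the same split ran through windows outside the family.

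**Figure D5:**
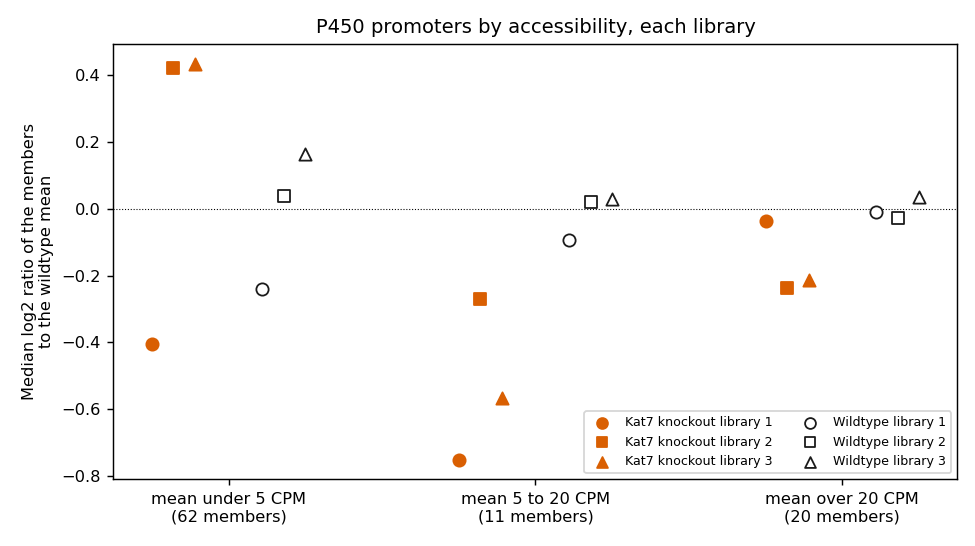
Median log2 ratio of the P450 promoters to the wildtype mean in each library, by mean accessibility, with knockout libraries filled and wildtype libraries open. Under 5 CPM knockout library 1 (-0.41) lies opposite libraries 2 and 3 (0.42 and 0.44), whereas between 5 and 20 CPM all 3 knockout libraries lie below all wildtype libraries.

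Human counterparts of 5 listed members (Cyp21a1, Cyp17a1, Cyp11a1, Cyp1a2 and Cyp2a5) are autoantibody targets in autoimmune polyglandular syndrome or liver disease. The list may not be complete. It held no Cyp2d member, so Cyp2d22, with the largest fall of the family (-1.99), was not counted in it. Whether a Cyp2d enzyme is such a target was not examined here. Of the 5, 1 was lower, Cyp17a1, against 20.2% of all windows. Cyp2a5, a coumarin hydroxylase, was the most open of them, with 42.7, 30.6 and 37.9 CPM in knockout and 42.9, 42.6 and 45.5 CPM in wildtype. Knockout library 1 lay among the wildtype libraries and the other 2 below them (log2 fold change -0.24, SE 0.11, adjusted p = 0.108). This window was called lower in 7 of 14 alternative fits, among them those without knockout library 1 (adjusted p = 0.00605 in edgeR) and without wildtype library 2 (0.00736). Cyp1a2, a liver enzyme that oxidises caffeine, had 1.09, 2.03 and 1.89 CPM in knockout and 1.49, 1.41 and 1.48 CPM in wildtype (log2 fold change 0.19, SE 0.42, adjusted p = 0.781). The sum over the 5 was 54.7, 46.4 and 54.3 CPM in knockout and 63.5, 65.8 and 69.7 CPM in wildtype.

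Windows of the machinery that P450 enzymes share were counted too, against 26.6% called over all windows. Of 9 windows for electron donors and redox partners, 0 passed in either direction in edgeR (0 at an unadjusted p and in DESeq2, 2 lower in limma-voom), among them Por, the reductase that feeds the microsomal enzymes, at 251 ± 26.9 CPM in knockout and 235 ± 17.6 CPM in wildtype (SD, n = 3 each; log2 fold change 0.09, SE 0.13, adjusted p = 0.643). Of 9 tested for heme synthesis and breakdown, 1 passed, Cpox (0.45). Of 3 P450 genes outside the symbol rule (Cyp51, Ptgis and Tbxas1), 0 passed in edgeR (0 at an unadjusted p and in DESeq2, 1 higher in limma-voom).

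Other enzymes of foreign-compound metabolism were counted beside the family. Of 33 windows for conjugating enzymes and flavin monooxygenases, 17 were lower and 2 higher, with a median log2 fold change of -0.40, against 20.2% lower and a median of 0.04 over all windows. The sulfotransferases Sult1b1 (-2.55), Sult1d1 (-2.18), Sult1a1 (-1.26) and Sult2b1 (-0.92) fell, as did the glutathione transferases Gstm2 (-1.30), Gsta3 (-1.04), Gsta4 (-0.90), Gstm1 (-0.64), Gstm3 (-0.64), Gsta1 (-0.56) and Gstt1 (-0.52). Others that fell were Ugt2b34 (-0.74), Ephx1 (-0.51), Ephx2 (-0.46), Ugt1a1 (-0.42) and Nat2 (-0.32). Fmo2 (0.46) and Gstt2 (0.32) were higher, and 0 were higher without knockout library 2, wildtype library 1 or wildtype library 3. With loess offsets 11 of the 33 were lower. Among 11 xenobiotic receptor windows tested, 3 were lower and 0 higher (0 at an unadjusted p and in both other tools): Ppara, Rxrg (-1.25) and the pregnane receptor Nr1i2 (-0.48), and 5 were lower in limma-voom with sample weights. Among 13 arachidonic acid enzymes outside the family, Alox15 (-0.71), Alox12b (-0.50) and Ptgds (-0.49) were lower, and Alox5 (0.83) and Alox5ap (0.47), which together start leukotriene synthesis, were higher. Of these 1 was higher without knockout library 2 or 3 or without any 1 of the wildtype libraries, and with loess offsets 1 was lower and 4 higher.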

How the data were processed

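ATAC-seq libraries were prepared by the Corces protocol and sequenced as paired reads of 75 bases, per the labels' protocols and the design text. The authors deposited integer counts of reads in 1 promoter window per gene; the submitters' processing notes name featureCounts and build mm10. In the sources used here, neither the aligner nor the handling of duplicate or multiply mapped reads is given. Windows reached from 3000 bases upstream to 2000 downstream of a gene start. For Cyp3a13, Cyp2j6, Cyp11a1, Cyp19a1 and Cyp2c39 the start of the RefSeq gene lay upstream of the window. Another RefSeq start lay inside the window for Cyp11a1, Cyp19a1 and Cyp2c39. Of the 94 P450 windows, 5 share bases with another window (Cyp39a1, Cyp24a1, Cyp2u1, Cyp1a1 and Cyp1a2). All 6 libraries' own tables equalled the series table, and symbols were joined from them by gene identifier.

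From these counts, edgeR 4.0.16 in R 4.3.3 kept 24817 windows (filterByExpr defaults) and applied TMM factors and the robust quasi-likelihood test, adjusted by Benjamini-Hochberg over all windows at 0.05. SE is the log2 fold change over the square root of F. Where no other test is named, an adjusted p comes from this one. The code was tested on simulated data. The test had no replicate block: deviations of same-numbered libraries correlated at 0.37, 0.03 and 0.39, and the labels state no pairing. Alternatives used DESeq2 1.42.0, limma 3.58.1 (voom with sample weights), other scalings and filters, the replicate number as a block, and each library left out.

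The members and lists were chosen with earlier results of these data known, so no list count is independent evidence. Some windows counted in the lists are not reported by name here. Values in each library were given for the members past the threshold, at most the 12 of largest change in each direction. The same holds for every steroidogenic, retinoid, vitamin D, and sterol and bile acid member, and for the listed autoantibody targets. Cyp46a1, Cyp1b1, Cyp2j6 and Cyp2c66 were also given for their level, place or size of change, some of them after their values were seen. Sequences come from RefSeq tables of GRCm38.p6.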

Additional observations from a re-analysis of the deposited data

How the results depend on the processing

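The count of lower P450 promoters stayed between 11 and 18 over the 14 alternative fits, against 14, and between 11 and 15 when single libraries were left out. The count of higher ones was less stable: against 7, it was 24 in limma-voom with sample weights, 11 with loess offsets and 13 with the replicate number as a block (where 16 were lower), and ranged from 4 (without wildtype library 1) to 17 (without knockout library 1). Most of the added calls were nearly closed Cyp2c, Cyp4a and Cyp2b promoters. The labels do not state that replicate numbers pair the libraries, and the same-numbered pair 2 did not deviate together. With a mean count of at least 50 required, 41 members were tested and their median log2 fold change was -0.21, against 0.11; leaving out single libraries gave medians of 0.03 to 0.21. The calls of Cyp2d22, Cyp4f39, Cyp17a1, Cyp3a13, Cyp26c1, Cyp8b1, Cyp2s1, Cyp4v3, Cyp27b1, Cyp26a1, Cyp2f2, Cyp2g1, Cyp2t4 and Cyp4f15 held in all 14 fits. Cyp2w1 was lost with loess offsets (adjusted p = 0.0713). Among the steroidogenic, retinoid, vitamin D, sterol and bile acid members and the listed autoantibody targets, 7 that did not pass changed sign in some fits. Signs of the remaining members that did not pass were not followed. Leaving out single libraries gave log2 fold changes from -0.27 to 0.21 for Cyp11a1, -0.33 to 0.048 for Cyp11b2, -0.18 to 0.24 for Cyp21a1, -0.13 to 0.59 for Cyp24a1, -0.12 to 0.082 for Cyp2r1 and -0.37 to 0.36 for Cyp7a1. In limma-voom Cyp11a1 was 0.19, Cyp11b2 0.086 and Cyp2r1 -0.11. With loess offsets Cyp11a1 was 0.061, Cyp1a2 -0.044, Cyp24a1 -0.092 and Cyp7a1 -0.17. Cyp2r1 was -0.028 with library totals and -0.035 with no filter. The cause was not tested. Depth limited the low windows most: SEs of tested members under 5 CPM reached 0.56 on the log2 scale.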
